A study of Mus musculus with 12 samples.

Results

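The cornified envelope is the insoluble protein shell that replaces the plasma membrane of a keratinocyte as it dies at the skin surface, and the genes described here encode its building blocks, the enzymes that cross-link them and factors of late keratinocyte differentiation. They were chosen by symbol: every probe set with exactly 1 gene symbol that begins with Lce or Sprr, or that is 1 of the listed late differentiation genes such as Lor, Ivl, Flg2, Hrnr, Cdsn or Tgm1. This gave 53 probe sets for 53 genes, out of 35512 probe sets and 19938 genes on the arrays. Flg has no probe set under its symbol alone and was not analysed here, and 4 probe sets that list several Lce or Sprr symbols, 1 for Lce and 3 for Sprr genes, were left out.

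Expression was measured on 12 arrays of mouse epidermal stem cells, 3 in each of 4 groups. The bulge, the stem cell niche of the hair follicle, was sampled at 18 to 19 days of age: alpha6bright/CD34+ cells of dorsal skin, from mice with the Per1-Venus reporter of the clock gene Per1, were sorted into Venus bright (clock-positive) and Venus dim (clock-negative) cells, with about 20 mice per sample. The labels of the clock-negative samples repeat the Venus-high gate, so each sample's group was read from its title. The 6 other arrays hold basal cells of the interfollicular epidermis (IFE) from mice 1 year old, either wild type (WT) or Bmal1 KO, with 5 mice per sample; Bmal1, gene symbol Arntl, is the activator of the core clock. The KO is described as epidermal, and the Cre driver, the deleted exon, the strain and the sex are not given in the sources used here. Every sample is a pool of sorted cells, so fewer cells of a type and less RNA per cell cannot be told apart. The p-values set each difference against the spread between these pools, not between single mice.

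The arrays carried signals that bear on the labels. Per1 was higher in clock-positive than in clock-negative bulge cells, by 0.51 ± 0.07 on the log2 scale (limma, adjusted p = 0.000195). Arntl, in contrast, read 9.27 to 9.47 in the WT arrays and 9.55 to 9.85 in the arrays labelled KO. Where its probes lie against the deleted part is not given, so this probe set checks nothing. Nr1d1, a direct target of Bmal1, read 12.28 to 12.60 in WT and 8.39 to 8.63 in KO arrays, a change of -3.98 ± 0.12 (limma, adjusted p = 1.08e-05). Dbp, another Bmal1 target, read 8.85 to 9.86 in WT and 7.32 to 8.10 in KO, a change of -1.82 ± 0.29 that did not pass the test (limma, adjusted p = 0.0662). Array medians ran from 6.82 to 7.01 in the bulge set and from 7.75 to 7.80 in the epidermis set. The clock-negative arrays had a narrower distribution of values, with lower quartiles of 5.68 to 5.73 against 5.47 to 5.49 in the clock-positive arrays.

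Envelope assembly begins beneath the membrane of the upper living layers, where the plakins envoplakin and periplakin and involucrin form a scaffold. Transglutaminases then bind loricrin, small proline-rich proteins and late cornified envelope proteins onto it, while S100 fused-type proteins such as filaggrin-2 and hornerin fill and strengthen the corneocyte. Most of these genes lie side by side in the epidermal differentiation complex. Neither bulge stem cells nor basal interfollicular cells are the layer in which the envelope is built, so the values below are levels of late transcripts in samples sorted for undifferentiated cells.

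Promoter sequence is given for 3 members, chosen as those on which the results turn: Lce1b, with the largest fall in the bulge, Flg2, with the largest bulge fall outside the Lce family, and Lor, with the largest change in the epidermis. Each is the stretch of 250 bases before the start site, 5′ to 3′ on the gene's strand, from RefSeq on build GRCm38.p6. Capitals mark AP-1 (TGANTCA) and TATA box (TATAAA) matches; the other motifs searched have no match in these 3.
Lce1b, chr3:92656927-92657176, minus strand: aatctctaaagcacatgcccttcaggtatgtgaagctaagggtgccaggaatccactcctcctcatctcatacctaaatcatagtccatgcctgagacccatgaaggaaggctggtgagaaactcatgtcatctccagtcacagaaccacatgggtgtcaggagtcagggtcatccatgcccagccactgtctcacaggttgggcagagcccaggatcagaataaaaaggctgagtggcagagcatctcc
Flg2, chr3:93197023-93197272, plus strand: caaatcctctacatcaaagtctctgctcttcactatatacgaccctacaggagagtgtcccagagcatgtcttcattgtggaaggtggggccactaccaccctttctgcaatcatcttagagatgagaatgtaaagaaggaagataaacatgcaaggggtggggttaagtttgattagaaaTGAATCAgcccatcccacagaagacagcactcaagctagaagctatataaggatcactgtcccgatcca
Lor, chr3:92083143-92083392, minus strand: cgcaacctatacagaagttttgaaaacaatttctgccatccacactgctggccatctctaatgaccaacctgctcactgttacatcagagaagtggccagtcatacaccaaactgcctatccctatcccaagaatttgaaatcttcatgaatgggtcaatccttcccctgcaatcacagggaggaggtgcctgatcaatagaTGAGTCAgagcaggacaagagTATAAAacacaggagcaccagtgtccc
The Lor promoter has an AP-1 match that begins 48 bases and a TATAAA match that begins 27 bases before the start. Flg2 has an AP-1 match at 69 bases, and the Lce1b promoter has an exact match to neither motif. Near forms, such as the tatataa ahead of the Flg2 start, were not counted or marked.

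Promoters were found for 46 of the 53 members and searched on both strands over 300 bases, from 250 before to 50 after the start. The E-box CACGTG, the motif bound by Bmal1 with its partner Clock, stood in 1 of 46 members (2.17%), Lce3a, against 7.15% of the 32851 promoters in the table. AP-1 matches stood in 16 of 46 members (34.8%, against 7.81% of all promoters). Exact TATAAA matches stood in 20 of 46 (43.5%, against 13.6%). These were counted anywhere in the window, and those of Lce6a and Lce3e began 218 and 243 bases before the start. Other forms of the TATA box were not counted. Matches were spread unevenly over the families: 9 of 11 Sprr promoters and 0 of 12 Lce1 promoters had an AP-1 match. A TATAAA match stood in 10 of 11 Sprr and 1 of 12 Lce1 promoters. The grainyhead motif AACCNGTT was found in 1 of 46 (2.17%, against 2.09%). None of the 4 motifs overlaps another in its letters, and a match is only a description of the sequence. Over 66 pairs, the Lce1 promoters were 51% to 86% identical (median 66.6%). The genes belong to 1 family, and probe sets may also share signal between them. Transcript and probe sequences were not compared.

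In the bulge, the envelope genes were lower in clock-positive than in clock-negative cells. Of 36 members bright enough to test, 26 fell and 3 rose, and 7 did not pass the test. Over all 13956 genes tested, 18.3% fell and 45.2% rose (limma, adjusted p under 0.05), so the members' direction was opposite to that of most called genes. The other 17 members lay among the 30% of genes with the lowest mean and were not tested. The median change over all 53 members was -0.45 on the log2 scale, beside 0.0067 over all genes with values. The 3 clock-positive values all lay below the 3 clock-negative values in 27 of the 36 tested members, against 19.1% of tested genes, and all above in 6, against 50.1%.

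**Figure D1:**
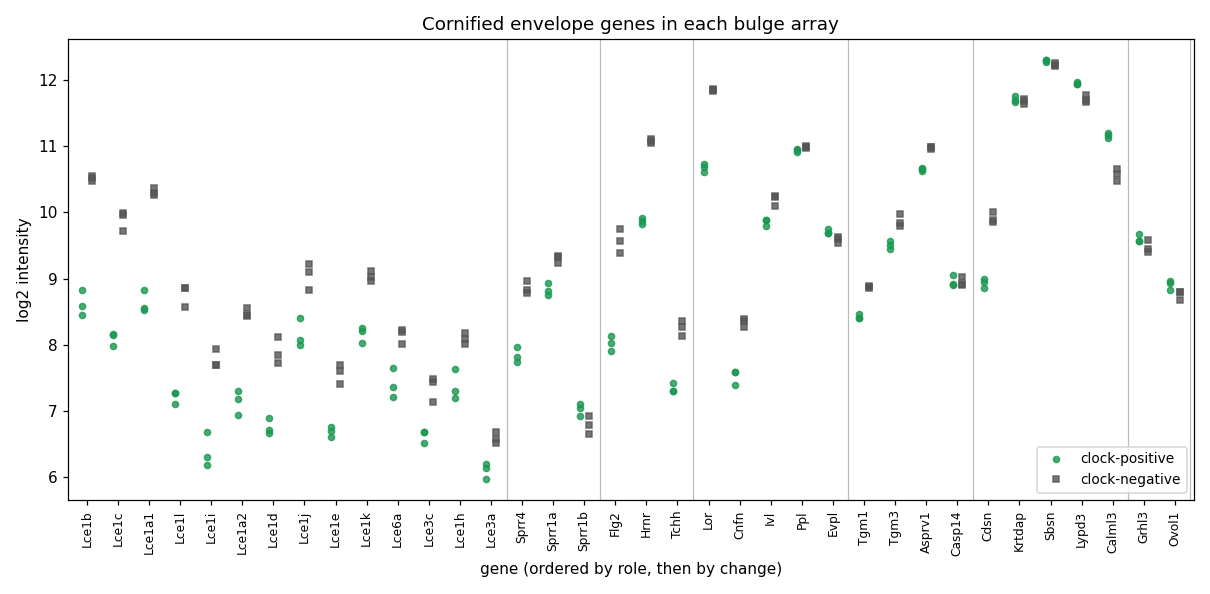
Log2 intensity (vertical axis) of the 36 tested members in each of the 6 bulge arrays, with circles for clock-positive and squares for clock-negative arrays; grey lines part the role groups. Circles lie below squares without overlap in 27 genes, Lce1b and Tgm1 among them, and above them in 6, such as Calml3.

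Lce1 genes, of the late cornified envelope family, had the largest single changes. All 14 tested Lce members fell and 5 were too dim to test. Lce1b read 8.82, 8.45 and 8.58 in the clock-positive arrays and 10.54, 10.47 and 10.52 in the clock-negative arrays. The groups were far apart and tight: the change was -1.90 ± 0.09, or 3.72-fold lower (limma, adjusted p = 3.71e-07). Lce1c read 7.98, 8.17 and 8.15 against 9.72, 9.96 and 9.99, which is 3.46-fold lower (limma, adjusted p = 4.08e-07). Lce1a1 read 8.83, 8.53 and 8.56 against 10.29, 10.26 and 10.36, which is 3.17-fold lower (limma, adjusted p = 5.32e-07). In each of these genes the clock-positive arrays were all low and the clock-negative arrays all high. Changes of the other tested Lce1 genes ran from -1.54 for Lce1l, through -1.39 for Lce1i and -1.34 for Lce1a2, to -0.71 for Lce1h. The 13 Lce1 members, with the dim Lce1f and Lce1g among them, showed no overlap between the groups, and their median change was -1.14.

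Outside Lce1, 3 of the 6 Lce members were tested and fell. Lce6a fell by 0.73 ± 0.11, with 7.65, 7.21 and 7.37 in clock-positive and 8.19, 8.01 and 8.23 in clock-negative arrays. Among the Lce3 genes, which are known from wound repair and psoriasis, Lce3c fell by 0.72 ± 0.09 and Lce3a by 0.49 ± 0.08. The Lce3a clock-positive values, 5.98 to 6.20, lay below 6.27, the bulge cutoff for dim genes. It passed the filter only through its clock-negative values. The remaining 3 Lce3 members were dim and their groups overlapped: Lce3b differed by -0.06, Lce3e by -0.13 and Lce3f by 0.12. The Lce3 median was thus -0.13, beside -1.14 for Lce1.

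Most genes of small proline-rich proteins, flexible cross-bridges between the other envelope proteins, read lower in clock-positive cells, but few could be tested. Of the 13 Sprr members 3 could be tested. Sprr4 read 7.82, 7.96 and 7.74 in clock-positive and 8.96, 8.78 and 8.82 in clock-negative arrays, a change of -1.02 ± 0.08 (limma, adjusted p = 5.37e-06). Sprr1a fell by 0.47 ± 0.07. Its close copy Sprr1b went the other way, with 7.11, 7.04 and 6.93 against 6.65, 6.92 and 6.79, a rise of 0.24 ± 0.08 (limma, adjusted p = 0.0244). The Sprr1b groups all but touched, and the call was lost when clock-positive replicate 1 or 2, or clock-negative replicate 1 or 3, was left out. All 9 Sprr2 members were dim: their changes ran from -0.73 for Sprr2e to -0.08 for Sprr2h, and 8 of 9 were lower without overlap, against 57.1% of dim genes. Dim genes as a whole had a median change of -0.21, beside -0.34 for the Sprr2 members.

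Among the S100 fused-type proteins, which pack keratin and coat the corneocyte, all 3 tested members fell. Flg2, encoding filaggrin-2, read 8.13, 7.90 and 8.02 in clock-positive arrays and 9.74, 9.39 and 9.56 in clock-negative arrays. This was a change of -1.55 ± 0.09, or 2.93-fold lower (limma, adjusted p = 1.19e-06), without overlap. Hrnr, encoding hornerin, read 9.87, 9.83 and 9.92 against 11.11, 11.07 and 11.05 and was 2.30-fold lower (limma, adjusted p = 5.32e-07). Tchh, encoding trichohyalin of the inner root sheath and medulla of the hair, fell by 0.91 ± 0.07. The dim members Crnn and Rptn differed by -0.56 and -0.22, also without overlap, as did most dim genes.

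The other envelope precursors differed widely in the size of their change. Lor, encoding loricrin, the main protein of the finished envelope, read 10.69, 10.73 and 10.61 in clock-positive and 11.86, 11.83 and 11.84 in clock-negative arrays. It was 2.24-fold lower, a change of -1.17 ± 0.06 (limma, adjusted p = 6.56e-07), and the gap between the groups was many times the spread within them. Cnfn, encoding cornifelin, fell by 0.82 ± 0.07, and Ivl, encoding involucrin of the early scaffold, by 0.33 ± 0.07. The plakin genes did not pass the test: Ppl differed by -0.05 (95% interval -0.18 to 0.08) and Evpl by 0.12 (95% interval -0.02 to 0.25). Their intervals leave room only for changes far smaller than that of Lor.

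Of the 4 enzymes, 3 fell. Tgm1, the membrane-bound transglutaminase of keratinocytes, read 8.40, 8.40 and 8.46 against 8.89, 8.85 and 8.87, a change of -0.45 ± 0.06 (limma, adjusted p = 0.00018). Tgm3, the transglutaminase of the upper epidermis and inner root sheath, fell by 0.37 ± 0.07, and Asprv1, a protease that processes profilaggrin, by 0.32 ± 0.06. Casp14, the caspase of cornifying cells, differed by 0.02 (95% interval -0.14 to 0.17) and did not pass the test.

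Secreted, adhesion and calcium-binding members held both directions. Cdsn, encoding corneodesmosin, the adhesive protein that holds corneocytes together, read 8.86, 8.95 and 9.0 in clock-positive and 10.01, 9.85 and 9.88 in clock-negative arrays. It fell by 0.98 ± 0.07, or 1.97-fold (limma, adjusted p = 3.30e-06), with no overlap. Calml3, a calmodulin-like protein of epithelial cells, was the member with the largest rise: 11.19, 11.12 and 11.17 against 10.66, 10.47 and 10.57, a change of 0.59 ± 0.07 (limma, adjusted p = 7.46e-05). Lypd3, a lipid-anchored surface protein of suprabasal cells, rose by 0.23 ± 0.06. Krtdap and Sbsn, secreted proteins of differentiating keratinocytes, differed by 0.03 (95% interval -0.11 to 0.16) and 0.07 (95% interval -0.06 to 0.20). The transcription factors did not pass the test either: Grhl3, which drives barrier formation, differed by 0.12 ± 0.07 and Ovol1, which turns keratinocytes from division to differentiation, by 0.14 ± 0.07.

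The counts moved with the filter, the spread and the scaling. With no genes left out as dim, 35 of the 53 members fell, against 27.9% of all genes, and the members called in addition were Lce1f, Lce1g, Sprr2d, Sprr2e, Sprr2f, Sprr2j-ps, Sprr2k, Crnn and Rptn. Asprv1, Ivl, Lypd3, Sprr1a and Sprr1b lost their calls when all 12 arrays shared 1 estimate of the spread. With each array centred on its median, which moves the median change of all tested genes from 0.15 to 0.29, 26 members fell and 8 rose, beside 9.71% and 64% of genes; the added rises were Evpl, Grhl3, Krtdap, Ovol1 and Sbsn. With quantile normalization 26 members fell and 3 rose, beside 1696 and 4113 of 13956 tested genes. With cyclic loess 28 fell and 3 rose, beside 2208 and 3531 genes. Cyclic loess called Casp14 (-0.21) and Ppl (-0.20) lower, and Grhl3 was called higher without clock-negative replicate 1 (limma, adjusted p = 0.0341). The size of a member's change had little relation to its mean level (Spearman's rho = 0.143 across 53 genes on the same arrays, a description only).

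By position, 39 members lie in the epidermal differentiation complex on chromosome 3. There 21 of 22 tested members fell and 1, Sprr1b, rose. Of the 14 members on other chromosomes, all tested, 5 fell and 2 rose. Over all tested genes, 18.3% fell and 45.2% rose. Within the complex the Lce1 stretch held the largest changes, up to that of Lce1b, and Lor, Flg2 and Hrnr, towards the ends of the complex, were also far below 0.

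**Figure D2:**
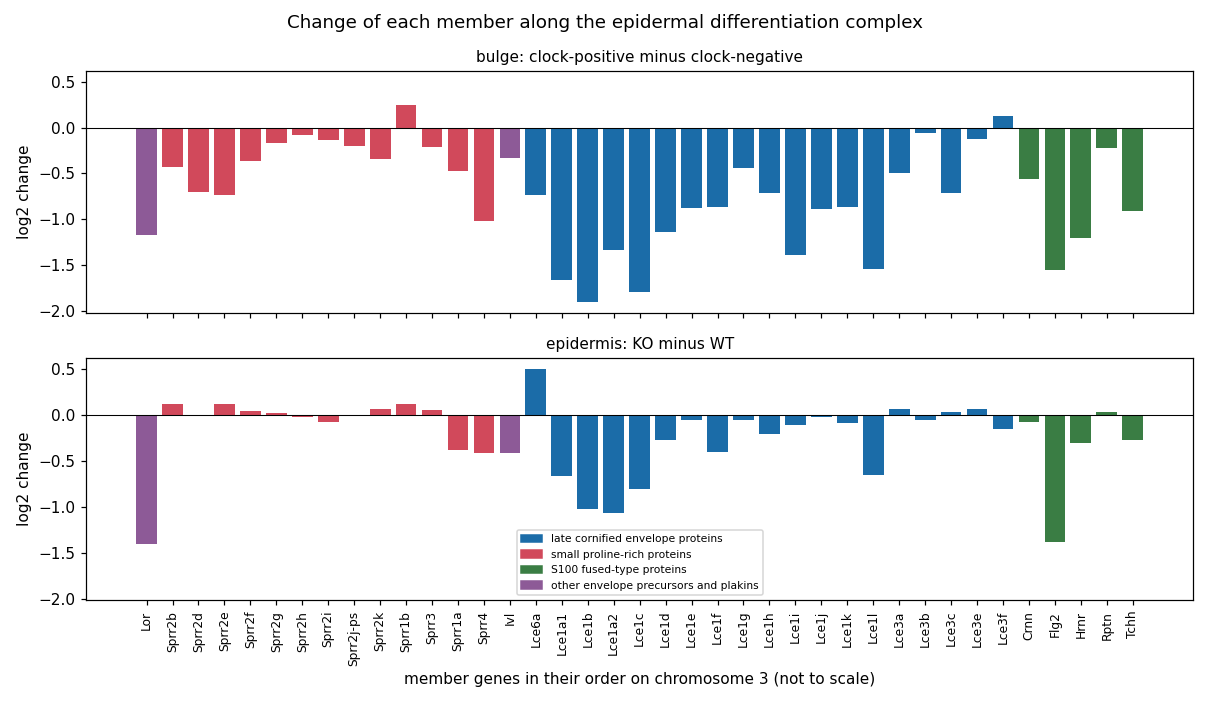
Log2 change (vertical axes) of the 39 members of the complex in their order on chromosome 3, above for the bulge (clock-positive minus clock-negative) and below for the epidermis (KO minus WT); colours give the role. Bars of Lce1 genes and of Flg2 reach furthest below 0 in the bulge, while in the epidermis Lor and Flg2 do. No gene tested in the epidermis passed the test. Dim genes are drawn in both panels without a mark and were not tested.

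Genes of related lists, fixed with earlier results known, showed both directions in the bulge. Of 11 spinous and early differentiation genes tested, 3 rose and 0 fell (8 of the 11 did not pass the adjusted test): Tgm5, another transglutaminase, by 1.41 ± 0.06, the water and glycerol channel Aqp3 by 1.02 ± 0.06 and Krt78 by 0.25 ± 0.07. The Krt78 call was lost with quantile normalization or cyclic loess, and each of those scalings called 1 gene of this list lower. Of 19 genes of barrier lipid synthesis, 3 rose and 3 fell. The lipoxygenases Alox12b and Aloxe3, which act on ceramides of the corneocyte lipid envelope, fell by 0.59 ± 0.08 and 0.49 ± 0.07, as did Sdr9c7 by 0.47 ± 0.08 in the same pathway, while Smpd1 rose by 0.37 ± 0.07. Of 18 other envelope and corneocyte genes, 2 rose and 3 fell, with Krt6a up by 0.90 ± 0.09 and Plb1 down by 0.56 ± 0.09. These last 2 lists depend on scaling. With cyclic loess 1 rose and 8 fell of the lipid genes, and 1 rose and 9 fell of the other envelope genes. With median centring 11 rose and 3 fell, and 8 rose and 2 fell. The calls over all 13956 tested genes moved too: 3531 rose and 2208 fell with cyclic loess, and 8928 and 1355 with median centring. Of 17 regulators of late differentiation 9 rose and 1 fell, beside 45.2% and 18.3% of all tested genes; among those that rose were Kdf1 by 0.58 ± 0.07 and Hopx by 0.49 ± 0.07; 3 rose with cyclic loess and 14 with median centring, and 0 fell with either.

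Of the marker lists of other cells, those of the inner root sheath, hair shaft and T cells were mostly lower in clock-positive cells, as the envelope genes were. The counts below stand beside 45.2% of all tested genes higher and 18.3% lower in clock-positive cells. With quantile normalization 4113 of 13956 tested genes were higher and 1696 lower, and with cyclic loess 3531 and 2208. Of 14 bulge stem cell genes 13 rose in clock-positive cells, Cd34 by 1.45 ± 0.06 and Lgr5 by 1.34 ± 0.06; quantile normalization and cyclic loess each gave 12 higher and 1 lower. Inner root sheath genes fell in 9 of 10 tested, of which Tchh and Tgm3 are also members, and hair shaft genes in 9 of 11. The inner root sheath mean was 7.14 to 7.23 in clock-positive and 7.75 to 7.84 in clock-negative arrays, and Krt27 fell by 1.00 ± 0.07. The hair shaft mean was 6.44 to 6.57 against 7.08 to 7.20. T cell genes fell in 8 of 9, with means of 7.04 to 7.08 against 7.88 to 7.99. Langerhans and myeloid genes fell in 6 and rose in 3 of 10, and their means were 7.63 to 7.69 against 7.74 to 7.80. Upper follicle genes, 4 higher and 2 lower of 10, had means of 9.70 to 9.74 against 9.64 to 9.70, and quantile normalization and cyclic loess each turned the balance to 2 higher and 5 lower. Sebocyte genes, 2 higher and 1 lower of 6, and basal keratinocyte genes, 7 higher and 1 lower of 13, complete the lists. The upper follicle, sebocyte and basal counts are near the shares of all tested genes and are no result about those cells. The part of these cells in the members' fall was not tested.

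In the epidermis, no member passed the test between KO and WT arrays. Of 32 members tested, 0 were called (limma), against 0.193% of 13957 genes (0.0788% higher and 0.115% lower in KO), and 21 were dim. At an unadjusted p under 0.05 there were 10, of which 9 were lower in KO, against 7.96% of all tested genes in either direction and 5.5% lower. The KO mean lay below the WT mean in 27 of the 32, a direction shared by 53.5% of tested genes, and the median change was -0.30 over the tested and -0.09 over all 53 members, beside -0.01 and 0.0029 over the tested and all genes. Groups did not overlap in 6 of the 32, Cdsn, Flg2, Lce1a2, Lce1b, Ppl and Tgm1, all lower in KO, against 8.55% of tested genes lower without overlap; 0 were higher without overlap, against 4.11%. Of these, Flg2 and Lce1a2 passed the dim filter only through their WT values.

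Lor and Flg2 had the largest differences. Lor read 7.83, 9.75 and 9.97 in WT and 8.36, 7.89 and 7.10 in KO arrays, which differed by -1.40 ± 0.55 (limma, adjusted p = 0.544). WT replicate 1 lay among the KO arrays while the other two WT arrays were well above them. Flg2 read 6.61, 7.70 and 8.54 in WT and 6.11, 6.28 and 6.33 in KO, a difference of -1.38 ± 0.41 (limma, adjusted p = 0.347). The 3 KO values were close together and all below WT, whose values spread over 1.93. They also lay below 6.83, the epidermis cutoff for dim genes, so Flg2 passed the filter only through its higher WT values. Cdsn read 8.47, 9.38 and 10.16 against 8.27, 8.22 and 8.29, a difference of -1.07 ± 0.36 (limma, adjusted p = 0.414).

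Of the Lce1 genes, Lce1a2 had the largest difference. Lce1a2 read 6.89, 8.49 and 7.62 in WT and 6.62, 6.50 and 6.68 in KO, a difference of -1.07 ± 0.34 (limma, adjusted p = 0.397). Its KO values, too, lay below the dim cutoff of 6.83, so it was tested only through its WT values. Lce1b read 7.32, 8.77 and 7.47 against 6.35, 7.14 and 7.01, and Lce1c 7.66, 8.81 and 8.38 against 7.31, 7.42 and 7.70. In these genes WT replicate 2 was the highest of the WT arrays, as in 12 of the 13 Lce1 members. Outside Lce1, WT replicate 3 was highest of the WT arrays in 18 of 26 tested members, Lor, Flg2 and Cdsn among them. The members thus did not share 1 order over the WT arrays. In Lce1j and Lce1k, which read 9.16 to 9.28 and 8.71 to 8.76 in WT, the WT range was small and the difference from KO only -0.02 and -0.09. Lce6a was the tested member with the largest difference above 0, at 0.50 ± 0.18 (limma, adjusted p = 0.49), with 7.91, 7.80 and 7.66 in WT against 7.87, 8.59 and 8.41 in KO.

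**Figure D3:**
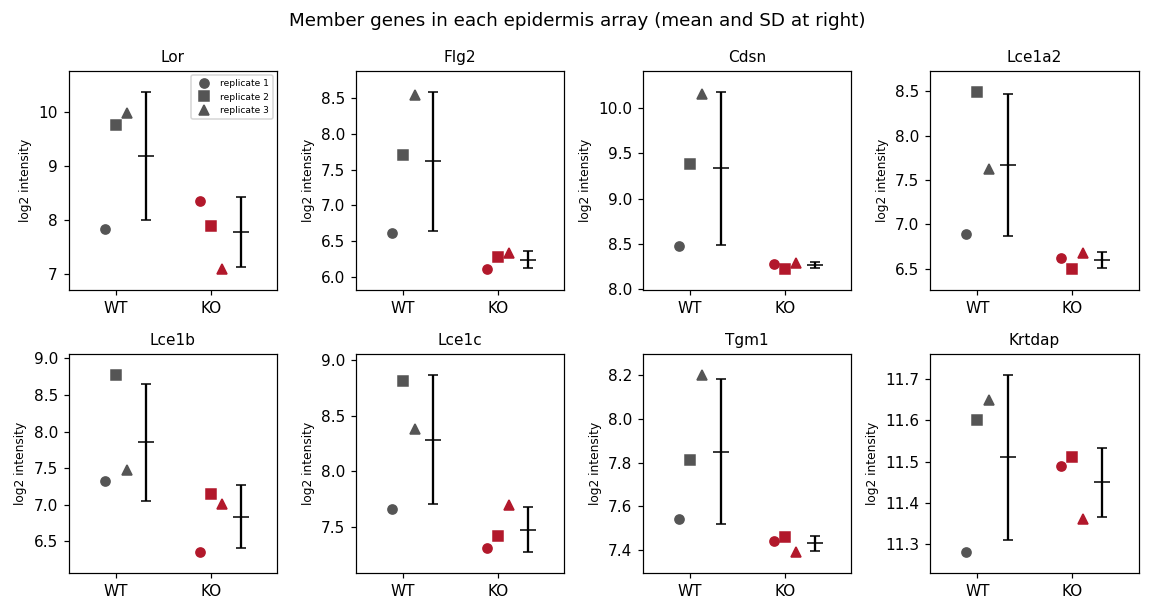
Log2 intensity (vertical axes) of 8 members in the 3 WT and 3 KO arrays; marker shape gives the replicate and the bar beside each group its mean and SD. In Lor the WT circle at 7.83 lies among the KO points, and in Flg2, Cdsn, Lce1a2 and Tgm1 the KO points are close together below all WT points. The KO points of Flg2 and Lce1a2 lie below 6.83, the cutoff for dim genes.

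Differences in the other roles were smaller. All 4 enzymes had lower KO means, by 0.42 for Tgm1 and Asprv1, 0.39 for Tgm3 and 0.35 for Casp14, and none passed the test. Ppl differed by -0.31 ± 0.11, with 12.04, 12.10 and 12.21 in WT against 11.94, 11.85 and 11.65 in KO. Krtdap differed by -0.06 (95% interval -0.35 to 0.23), Lypd3 by 0.05, Grhl3 by -0.14 and Ovol1 by 0.11. The Sprr members stayed within -0.42 for Sprr4 and 0.13 for Sprr2b, with a median of 0.02 over all 13.

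The calls depended on WT replicate 1, which was the lowest WT array in 22 of the 32 tested members. Without it, 5 members were called lower in KO, against 0.545% of genes lower: Lor at -2.08 ± 0.31 (limma, adjusted p = 0.0303), Flg2 at -1.88 ± 0.22 (0.0108), Cdsn at -1.51 ± 0.20 (0.0202), Lce1a2 at -1.45 ± 0.23 (0.0352) and Lce1c at -1.12 ± 0.17 (0.031). Leaving out any other epidermis array gave 0 calls. With 1 spread shared by all 12 arrays, Flg2 (limma, adjusted p = 0.0317) and Lce1a2 (0.0463) were called lower, against 1.84% of genes. The KO values of Flg2 and Lce1a2 lay below the dim cutoff of 6.83, so both were tested only through their WT values.

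WT replicate 1 also read low in several marker lists. The T cell mean was 7.77, 8.59 and 8.70 in WT replicates 1, 2 and 3 and 7.54 to 7.59 in KO. The Langerhans and myeloid mean was 7.29, 8.03 and 8.34 in WT against 7.20 to 7.34 in KO, and the upper follicle mean 9.33, 9.88 and 10.19 against 9.28 to 9.65. In these 3 lists, as in Lor, WT replicate 1 was nearer to the KO arrays than the other WT arrays were. The spinous mean was 10.45, 10.79 and 10.83 in WT and 10.54 to 10.72 in KO, so WT replicate 1 lay below all KO arrays there. The part of these cells in the member values was not tested. Of all the listed genes, 1 passed the test in the epidermis: Thy1 of the T cell list rose in KO by 1.19 ± 0.12 (limma, adjusted p = 0.0155), against the direction of that list's mean; cyclic loess called 1 other gene of the list lower. Aloxe3, which fell in the clock-positive bulge, differed in the epidermis by -1.16 ± 0.25 (limma, adjusted p = 0.176).

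The comparisons were then set against each other as clock-positive minus clock-negative and WT minus KO. The 2 comparisons share no array. Whether Venus dim cells have a weaker clock or another clock phase was not tested. The difference of these changes was below 0 in 16 of 30 members tested and above 0 in 0, against 6.02% and 10.7% of 13100 genes (limma, all 12 arrays; 18 members below 0 and 0 above at an unadjusted p under 0.05). In all 16 the bulge change lay below the epidermis change. For Flg2 the changes were -1.55 in the bulge and 1.38 in the epidermis, a difference of -2.93 ± 0.45 (limma, adjusted p = 0.000933). The Flg2 KO values lay below the dim cutoff of 6.83. For Lce1b they were -1.90 and 1.02, a difference of -2.91 ± 0.41 (adjusted p = 0.000539). For Lor they were -1.17 and 1.40, a difference of -2.57 ± 0.59 (adjusted p = 0.0116). Each of these genes thus fell in Venus bright cells within the bulge, while within the epidermis the WT mean was above the KO mean without passing the test.

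Members with smaller epidermis changes than Flg2, Lce1b and Lor also had differences below 0. Cnfn and Lce1k fell in the bulge, and their WT means lay 0.07 and 0.09 above KO in the epidermis. Their differences were -0.89 ± 0.15 (limma, adjusted p = 0.00202) for Cnfn and -0.96 ± 0.14 (adjusted p = 0.000719) for Lce1k. Hrnr fell in the bulge too, and its WT mean lay 0.30 above KO without passing the test. It had a difference of -1.50 ± 0.22 (adjusted p = 0.000573). The 14 members not called include Krtdap at -0.03 ± 0.14, Evpl at 0.02 ± 0.20, Grhl3 at -0.02 ± 0.18 and Calml3 at 0.18 ± 0.31. Of the 26 members that fell in the bulge, 23 had KO means below WT, a direction found in 56.7% of all genes that fell there. Tissue, age and pool size differ between the sets along with the contrast itself, Venus brightness or Bmal1 loss, and cannot be told apart. When the lowest 50% of genes were left out, 7 members of 20 were below 0, against 2.88% of genes. The members' SDs within groups also differed, with a median of 0.0902 in the bulge and 0.207 in the epidermis.

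**Figure D4:**
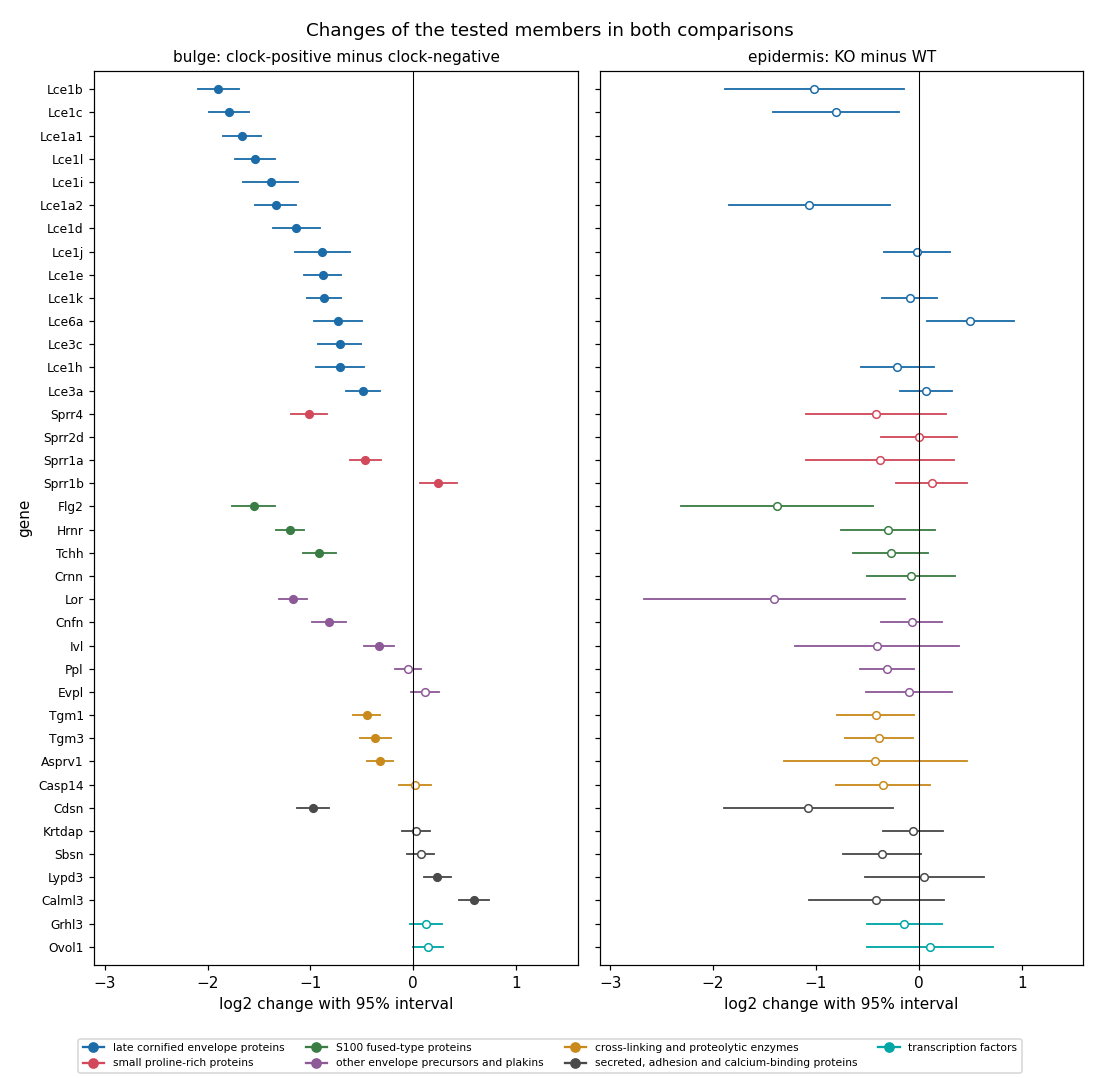
Log2 change with its 95% interval (horizontal axes) of each member tested in a comparison, left for the bulge and right for the epidermis, coloured by role; filled points passed the test and open points did not. In the bulge the Lce genes, Flg2, Hrnr, Lor and Cdsn lie far left of 0 with short intervals, while in the epidermis Lor, Flg2 and Cdsn lie left of 0 with long intervals and every point is open.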

How the data were processed

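RNA of sorted cells was amplified and hybridised to Affymetrix arrays, per the labels' protocols. The values deposited by the authors are log2 intensities, and the submitters' processing notes name RMA; its settings and the array's genome build are not given in the sources used here. Bulge columns hold 34760 probe sets and epidermis columns 28853, so the sets were tested apart. An array has no read depth, and the number of arrays, 3 per group, limits precision.

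Probe sets were named from the platform annotation: 21789 have 1 symbol, 1621 several and 12102 none. The 999 symbols with several probe sets were represented by the one measured on all 12 arrays, then the brightest. The dimmest 30% of genes by mean over the 6 arrays were left out of each comparison (below 6.27 in the bulge and 6.83 in the epidermis). Group means were compared with limma 3.58.1 under R 4.3.3 (lmFit, then eBayes with no trend), p-values were adjusted by Benjamini-Hochberg over all tested genes, and 0.05 was the threshold. The number after ± is the fitted standard error, and changes are differences of log2 group means. The third test fitted 4 group means over all 12 arrays. The fits were also run on simulated data with 200 changed genes and independent noise. In the bulge 63.5% of tested genes were called, so that run checks the code and not these results.

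The members and all lists were chosen with earlier results of these data known. The rule for naming was every member, with the few list genes of smallest p; Per1, Arntl, Nr1d1 and Dbp were read as label checks after the values were seen. All 53 Entrez identifiers matched RefSeq (GRCm38.p6), with 0 symbol changes; promoters were compared with Biopython 1.88. Alternatives tried were scaling, the dim filter, the probe set rule, the spread, a replicate block and each array left out.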

Additional observations from a re-analysis of the deposited data

Results flagged for a closer look

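For 16 members the change from clock-negative to clock-positive bulge cells differed from the change from KO to WT epidermis. The test was limma's, of the difference itself over all 12 arrays (clock-positive minus clock-negative, minus WT minus KO). All 16 differences were below 0. In the Lce family they were -2.91 for Lce1b, -2.60 for Lce1c, -2.40 for Lce1a2, -0.96 for Lce1k, -0.92 for Lce1h, -0.91 for Lce1j and -0.42 for Lce3a. Among the S100 fused-type proteins they were -2.93 for Flg2, -1.50 for Hrnr and -1.19 for Tchh. The other structural and adhesion genes gave -2.57 for Lor, -2.05 for Cdsn, -1.43 for Sprr4 and -0.89 for Cnfn, and the transglutaminases -0.87 for Tgm1 and -0.76 for Tgm3. Each of these genes fell in the clock-positive bulge, and 0 of them passed the test in the epidermis comparison alone. Lce3a is the weakest of them: its call was lost in 16 of 20 alternatives. The KO values of Flg2 and Lce1a2 lay below 6.83, the epidermis cutoff for dim genes. The clock-positive values of Lce3a lay below 6.27, the bulge cutoff. Flg2, Lce1a2 and Lce3a thus passed the dim filter only through their higher group.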

How the results depend on the processing

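Precision is limited by 3 pools per group, and more so in the epidermis, where the spread within groups was larger. Of the 29 members called in the bulge, 24 kept their direction and call under every alternative in which they were tested, as did 14 of the 16 in the difference of changes. In the bulge the count of members that rose was 8 with median centring and 1 with all 12 arrays in 1 fit; the median change was -0.31 with median centring and ran from -0.52 to -0.43 when single arrays were left out. Casp14 went from 0.02 to -0.21 and was called with cyclic loess (adjusted p = 0.0274). In the epidermis 2 members were called, both lower, with all 12 arrays, and 0 to 5, all lower, when single arrays were left out. The difference of changes called 7 members, all below 0, when the lowest 50% of genes were left out (2.88% of genes below 0). It called 1 above 0, Sprr1b, with quantile normalization, with cyclic loess and without KO replicate 1 (0 to 1 over single arrays left out). The cause was not tested.

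The main fits did not treat same-numbered arrays as pairs, and correlations over 3 arrays per group cannot decide whether the samples are paired. Deviations of same-numbered arrays correlated at 0.24, 0.26 and -0.06 in the bulge and -0.44, 0.04 and -0.52 in the epidermis. Clock-positive replicates 1 and 2 correlated best with the clock-negative array of their own number, and replicate 3 did not. With the number as a block, 29 bulge, 0 epidermis and 15 difference calls among the members resulted; in the last, Lce3a and Lor lost their calls (Lor, adjusted p = 0.0825) and Ivl gained one (adjusted p = 0.0487).

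Over all genes, 8866 were called in the bulge, against 5301 with all 12 arrays, 5739 with cyclic loess, 5809 with quantile normalization, 10283 with median centring, 11849 of 19937 with no dim filter and 12503 of 21640 probe sets with every probe set. In the epidermis 27 were called, against 16 to 85 with the other scalings, filters, probe set rules and spread, 3 with the replicate block, 407 with all 12 arrays and 7 to 103 with single arrays left out. The difference of changes called 2192 (1404 above and 788 below 0), against 2624 above and 381 below with median centring, 1351 in all with the lowest 50% left out, 567 with the block and 1054 to 3944 with single arrays left out.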
